A study of Mus musculus with 2 samples.

Results

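Fibroblasts with transcripts of dermal papilla genes were taken from single-cell RNA profiles of newborn mouse back skin. Cells were first filtered to those in which between 1000 and 8000 genes were detected and mitochondrial transcripts made up less than 15% of the UMIs (unique molecular identifiers, which count captured RNA molecules). Among these filtered cells, a cell was called collagen-high when Col1a1 and Col1a2, the genes of type I collagen, together gave at least 20 UMIs per 10000 and more than Krt5 and Krt14, the keratins of basal keratinocytes. A collagen-high cell entered the group described here, called rule cells below, when at least 3 of 7 papilla genes were detected in it, namely Corin, Rspo3, Wif1, Inhba, Sox18, Fgf10 and Hhip. The rule found 524 cells, 282 in the control library and 242 in the Gli2EKO library, of 1366 collagen-high and 8206 filtered cells. The other 842 collagen-high cells, 521 in control and 321 in Gli2EKO, serve as the comparison group. The members were thus chosen by measured values, so levels of the 7 genes, of the collagens and of both keratins are given as a description, and every other gene was read from the same cells.

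The dermal papilla is the small condensate of specialised fibroblasts at the base of the hair follicle. It receives Sonic hedgehog from the overlying epithelium, and it sends R-spondins, FGFs, BMP antagonists and Wnt modulators back to the hair matrix. Papilla cells are classically recognised by alkaline phosphatase (Alpl), and their neighbours in the connective tissue sheath by smooth muscle actin (Acta2).

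The study compared Gli2EKO mice (K14Cre tg;Gli2 fl/fl), which lack the Hedgehog effector Gli2 in keratinocytes, with floxed littermates without Cre, whose genotype label reads WT. Both groups were on the C57Bl/6N background and were sampled at postnatal day 2, with 1 library for each genotype. Cells came from back skin sheets from which the collagenase-digested dermis had been rinsed away before trypsin treatment, so the sheets were labelled epidermis and the fibroblasts in them are those that stayed attached. The K14 promoter drives Cre in keratinocytes, so the fibroblasts of the Gli2EKO library carry a Gli2 fl/fl allele that is not expected to be recombined. How many mice were pooled in each library is not given in the sources used here. The polyA assay counts transcript ends and cannot show the deletion: Gli2 stood at 79.8 and 87.7 CPM in control and Gli2EKO keratinocytes (Krt5 and Krt14 at 20 or more UMIs per 10000 and above collagen), where CPM, counts per 1e6, is the share of a gene in the UMIs summed over the cells of a group.

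The control library held 6326 barcodes with 71021773 UMIs and the Gli2EKO library 4296 barcodes with 48866478 UMIs, and 0 barcodes were shared. Rule cells had a median of 14326 and 11424 UMIs per cell in control and Gli2EKO, other collagen-high cells 11312 and 10341, and keratinocytes 13360.5 and 13771. With 1 library per genotype no test between genotypes was possible and no p-value is given. Shares carry exact Clopper-Pearson intervals, CPM exact Poisson intervals and ratios exact conditional binomial intervals, all at 95%, and all cover counting error only. In what follows, a pair of values gives control first and Gli2EKO second.

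The label of dermal papilla fibroblasts held for a minority of the rule cells. The collagen-high cells of both libraries were clustered without the 7 rule genes, the collagens, Krt5, Krt14 and sex-linked genes, and fell into 14 clusters. In 1 cluster of 71 cells the summed level of the markers Corin, Rspo3, Wif1, Inhba and Sox18 was the highest, and Corin, Alpl and Edn3 were among its 10 leading genes. This cluster was picked by that summed level and is called papilla-like below. It held 66 rule cells (30 in control and 36 in Gli2EKO), which made up 12.6% of all rule cells and 93.0% of the cluster. The other 458 rule cells were spread over clusters led by other genes. In them Alpl, Sox2, Hey2 and Scube3, papilla genes outside the rule, were near their level in the comparison group, as given below. Not all such genes were. Alx4 stood at 71.1 and 57.5 CPM in collagen-high cells with 3 of the 7 genes, beside 41.4 and 29.0 CPM in those with 2. Prom1 stood at 14.9 and 13.9 beside 4.32 and 6.61 CPM. Few cells with 3 genes lay in the papilla-like cluster.

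The largest number of rule cells, 117 (22.3%), lay in a cluster led by Ednrb, an endothelin receptor, and Acta2. A cluster led by Dkk1, a secreted Wnt inhibitor, and Tcf7, a Wnt effector, held 95 (18.1%). An Adarb2-led cluster held 75, a cluster led by the mitotic genes Ube2c and Prc1 held 62, and a Fabp4-led cluster, named for a fatty-acid binding protein of adipocytes, held 44. A keratin-led cluster (Krt17, Krt14) held 34 rule cells, and 84.3% of all its cells were among the 8% of filtered cells with the highest doublet score of their library. Doublet scores were not used to remove cells. Of the rule cells, 10.99 and 6.198% were among those highest scores, against 15.7 and 9.66% of the other collagen-high cells.

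**Figure D1:**
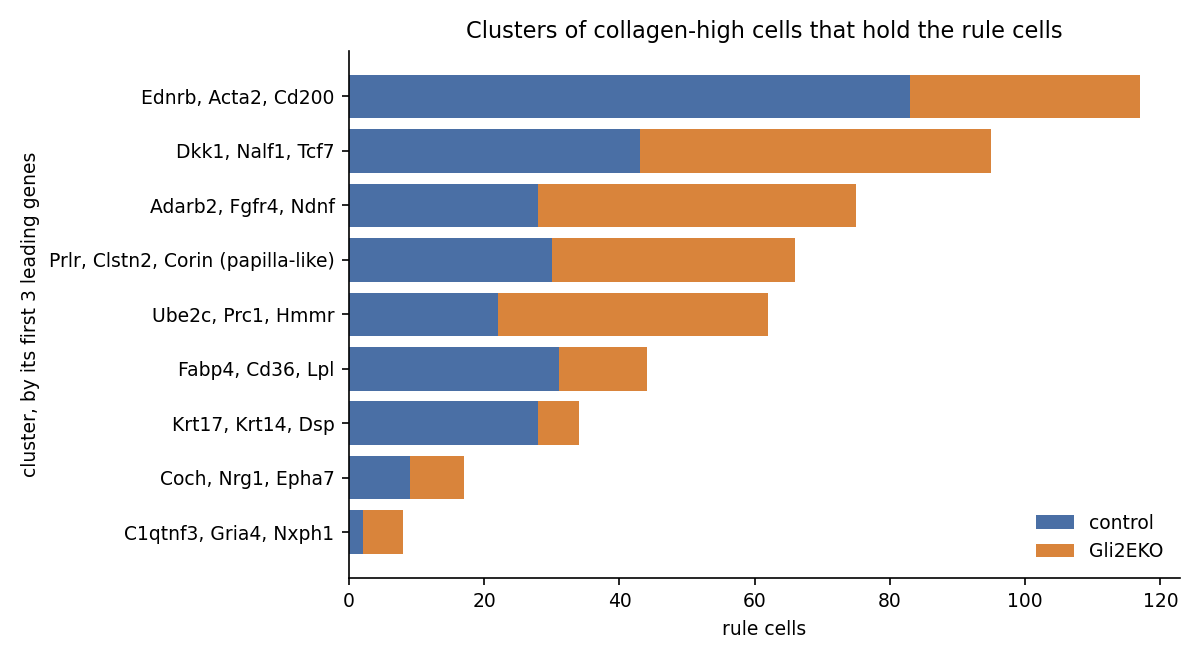
Number of rule cells (x axis) in each cluster of collagen-high cells that held at least 5 of them, each named by its first 3 leading genes (y axis), with control cells in blue and Gli2EKO cells in orange stacked on them. The papilla-like cluster holds 66 of the 524 rule cells and is the fourth bar from the top.

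The share of collagen-high cells that lay in the papilla-like cluster rose with the number of the 7 genes detected. Of the 296 collagen-high cells with exactly 3 of the genes, 4 (1.35%) lay in the papilla-like cluster, and of the 145 with 4 genes, 9 (6.21%) did. Of the 45 cells with 5 genes 18 (40.0%) lay there, of the 21 with 6 genes 19 (90.5%), and of the 17 with all 7 genes 16 (94.1%). Just below the threshold, 405 collagen-high cells had exactly 2 of the genes, and 5 of them (1.23%) lay in the papilla-like cluster. The 7 genes were not in the clustering, but the summed level of 5 of them picked the cluster, so such a rise is partly built in. The genes and the clustering also come from the same cells, so these shares describe the rule and do not test it.

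Levels of genes outside the rule differed with that number too. Alpl stood at 0.786 CPM in control cells with 3 of the genes, at 4.69 with 4 and at 148 with 5 to 7. In Gli2EKO cells Alpl stood at 4.84, 6.48 and 119 CPM over the same steps. Alpl was high in cells with 5 or more of the genes and low in the cells with 3 or 4, which make up most of the rule cells. Acta2 stood at 508 and 273 CPM in cells with 1 of the genes, at 1713 and 986 CPM in cells with 3, and at 1296 and 304 CPM in cells with 5 to 7.

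**Figure D2:**
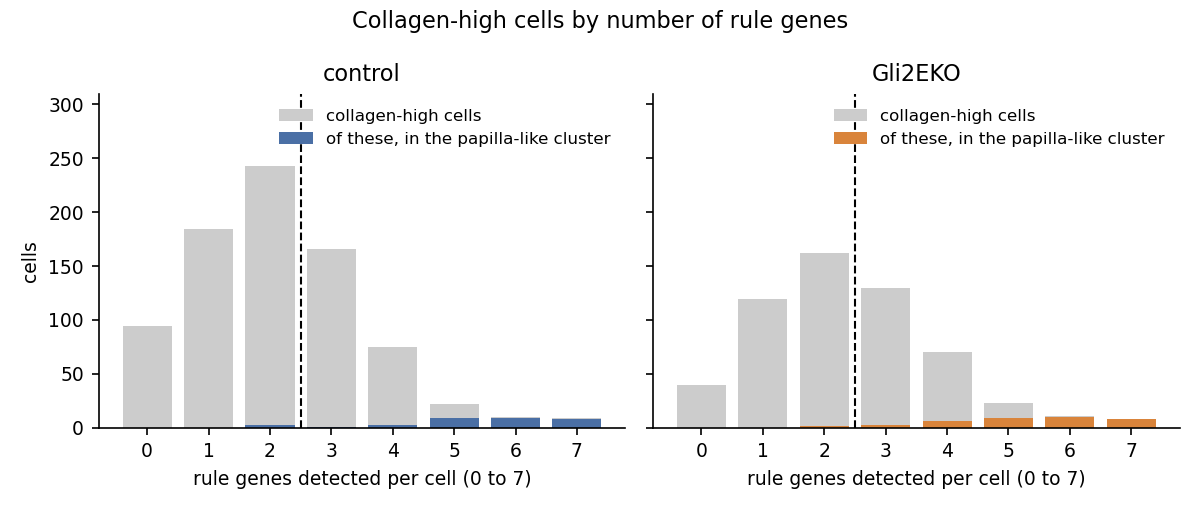
Number of collagen-high cells (y axis) by how many of the 7 rule genes were detected in them (x axis), for control (left) and Gli2EKO (right), with all cells in grey and those of the papilla-like cluster coloured; the dashed line marks the threshold of 3 genes. Cells with 3 or 4 genes are rarely in the papilla-like cluster, and cells with 6 or 7 nearly always are.

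The 7 rule genes did not contribute equally to membership. Wif1, a secreted Wnt inhibitor (chr10:120869865-120936555 in GRCm39), was detected in 240 and 221 of the 282 and 242 rule cells. Sox18, a transcription factor also active in endothelium (chr2:181311629-181313438), was detected in 192 and 159 of them. Hhip, a membrane protein that binds and restrains Hedgehog ligands (chr8:80692480-80784658), was found in 168 and 132, and the ligand gene Fgf10 (chr13:118806327-118928672) in 159 and 126. Inhba, which encodes the activin A subunit (chr13:16186373-16206206), was found in 130 and 111. Rspo3, an R-spondin that strengthens Wnt signals (chr10:29327285-29411876), was found in 91 and 121. Corin, a membrane serine protease made by papilla cells (chr5:72457290-72661924), was found in only 51 and 37. Wif1 and Sox18 were thus the rule genes found in most rule cells, and Corin was found in the fewest.

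Within the rule cells, Corin was highest in the papilla-like cluster. That cluster was picked by the summed level of Corin, Rspo3, Wif1, Inhba and Sox18, so this is partly built in. Its level there was 618 and 533 CPM, against 25.1 and 13.2 CPM in the remaining rule cells and 1.67 and 1.99 CPM in other collagen-high cells. A Corin UMI was found in 24 of 30 and 25 of 36 rule cells of the cluster. After every cell was thinned to 2000 UMIs, the share with a Corin UMI was 19 of 30 (63.3%) and 17 of 36 (47.2%) in the cluster and 3.97% and 2.91% in the remaining rule cells. The share was 0.505% and 0.411% in keratinocytes, which should lack the gene; unthinned, it was 1.33% and 1.08% there, from 168 UMIs in 29 cells and 89 UMIs in 21 cells. In cells with immune or endothelial markers Corin had 4 UMIs in 4 of 126 control cells and 0 in 77 Gli2EKO cells, which allows a share of up to 3.896%. Where the Corin UMIs of keratinocytes came from was not tested.

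The other rule genes were also at their highest in the cluster, which for Rspo3, Wif1, Inhba and Sox18 is partly built in by how it was picked. In the remaining rule cells they lay above other collagen-high cells, except Rspo3 in control, which lay near them. The remaining rule cells were chosen for detecting these genes, so levels above the comparison group are partly built in. Rspo3 stood at 1230.0 and 671 CPM in the cluster and at 55.9 and 106 CPM in the remaining rule cells, beside 53.7 and 57.7 CPM in other collagen-high cells. Inhba stood at 554 and 695 CPM in the cluster, 43.1 and 61.99 CPM in the remaining rule cells and 24.3 and 19.04 CPM in other collagen-high cells. Sox18 stood at 428 and 562 CPM in the cluster, 169 and 200.3 CPM in the remaining rule cells and 43.4 and 59.7 CPM in the comparison group. Sox18 and Wif1 were the rule genes whose level in the remaining rule cells came closest to the cluster, which the counts of cells above also show. Wif1 stood at 667 and 929 CPM in the cluster, 273 and 628 CPM in the remaining rule cells and 85.9 and 253 CPM in other collagen-high cells. Hhip stood at 741 and 400.0 CPM in the cluster, 115 and 96.8 CPM in the remaining rule cells and 60.7 and 46.3 CPM in the comparison group. Fgf10 stood at 354 and 234 CPM in the cluster, 59.3 and 64.9 CPM in the remaining rule cells and 33.7 and 23.6 CPM in the comparison group.

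Papilla genes that the rule did not use were high in the papilla-like cluster. Alpl (chr4:137469039-137524102) stood at 248 and 194 CPM in the cluster and at 2.95 and 4.77 CPM in the remaining rule cells. Sox2, a transcription factor of the papillae of guard, awl and auchene hairs (chr3:34704554-34706610), stood at 155 and 68.7 CPM against 1.48 and 4.402. Prdm1, a transcriptional repressor of early papilla cells (chr10:44313171-44404497), stood at 193 and 469 CPM against 7.63 and 18.7. All of these genes were high in the cluster and low outside it in both libraries, although the Sox2 and Prdm1 levels of the cluster differed between the libraries.

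Signals and their regulators followed the same order. Hey2, a Notch target, stood at 213 and 166 CPM in the cluster against 3.69 and 4.402 CPM in the remaining rule cells. Scube3, a secreted papilla signal, stood at 180.3 and 145 against 3.45 and 6.24 CPM. Edn3, the endothelin that acts on pigment cells, stood at 567 and 379.8 against 15.3 and 14.7 CPM. Lef1, a Wnt effector, differed less, with 184 and 186 against 65.7 and 73.4 CPM and log2 ratios of 1.49 (1.04 to 1.90) and 1.35 (0.85 to 1.81). For keratinocytes, Lef1 stood at 61.3 and 85.3 CPM and Prdm1 at 23.3 and 15.9 CPM, so both were also found in keratinocytes.

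**Figure D3:**
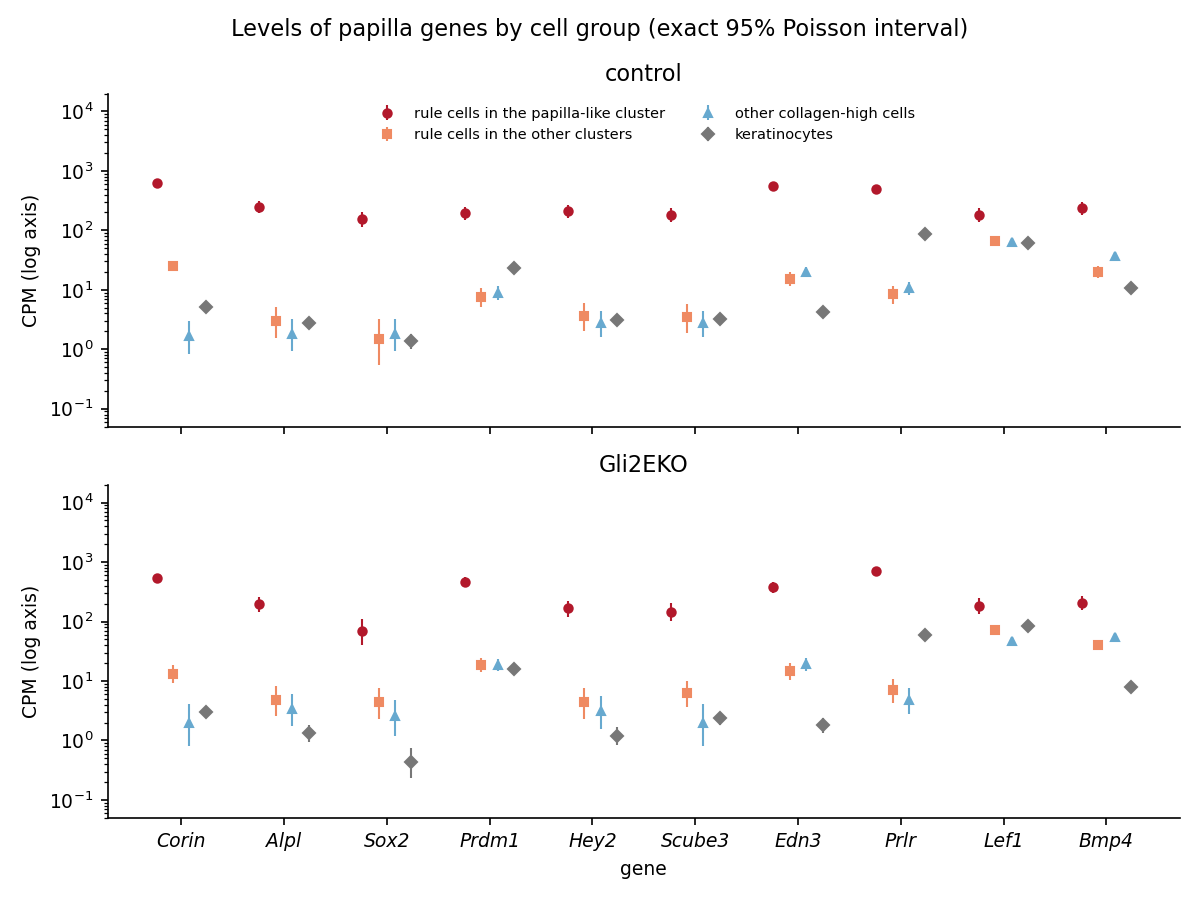
Level in CPM on a log axis (y axis) of 10 papilla genes (x axis) in rule cells of the papilla-like cluster (circles), rule cells of the other clusters (squares), other collagen-high cells (triangles) and keratinocytes (diamonds), for control (top) and Gli2EKO (bottom), with exact 95% Poisson intervals. In both libraries the cluster is highest for every gene shown, and the remaining rule cells lie near the other collagen-high cells for Alpl and Hey2.

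Over the whole list of 30 papilla genes outside the rule, 27 could be compared between the cluster and the remaining rule cells. At least 2-fold higher in both libraries were 16, namely Sox2, Prdm1, Lef1, Alpl, Bmp4, Fgf7, Hey1, Hey2, Alx4, Trps1, Enpp2, Scube3, Ndp, Crabp1, Cxcr4 and Prom1, and 1, Tbx18, was lower. The list's median log2 ratio was 2.39 and 1.80, beside 0.10 and 0.11 over all 10160 genes compared, of which 6.3% were at least 2-fold higher and 5.99% at least 2-fold lower in both libraries. Because the cluster was built from these genes among others, the counts describe it. The genes furthest above the remaining rule cells were led by Spef2, Prokr2, a prokineticin receptor, and Prlr, the prolactin receptor. Prlr stood at 502 and 707 CPM in the cluster and 8.37 and 6.97 CPM outside it, and Prokr2 at 229 and 202 CPM in the cluster and 1.23 and 2.57 CPM outside it.

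Acta2 and Actg2, both smooth muscle actins, were lower in the cluster, and Itga8, an integrin subunit, was higher, of 10 dermal sheath and smooth muscle markers compared, and the other members were not 2-fold apart in both libraries. The median log2 ratio of the list was -0.92 and -0.60. Of all genes compared, 6.3% were at least 2-fold higher and 5.99% lower in the cluster. Acta2 (chr19:34217737-34232990) stood at 122 and 141 CPM in the cluster and 1808 and 1086 CPM in the remaining rule cells. Ednrb, the gene furthest below, stood at 3.22 and 4.04 against 856 and 457 CPM. Tnmd, a membrane glycoprotein of tendon-like and sheath fibroblasts, stood at 16.1 and 12.1 against 440.2 and 333 CPM, and Dkk1 at 9.66 and 0 against 69.4 and 76.7 CPM, where 3 UMIs in the cluster would correspond to 9.66 and 12.1 CPM. Over the 12 dermal sheath and smooth muscle markers the summed level was 1536 and 1681 CPM in the cluster and 4964 and 3405 CPM in the remaining rule cells.

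Against the other collagen-high cells, papilla genes such as Alpl, Hey2 and Scube3 were higher in the rule cells as a whole, while Acta2 and Dkk1 were higher and Crabp1 was lower, unlike in the papilla-like cluster. Of 12156 genes compared, 67 (0.551%) were at least 2-fold higher in rule cells in both libraries and 227 (1.87%) at least 2-fold lower, with the 7 rule genes, the collagens, Krt5 and Krt14 left out. The comparison is within each library and shares its cells with the rule, so nothing is read from these counts beyond the description. The 15 genes furthest above were Spef2, Prokr2, Klhl14, F5, Lhfpl3, Kdr, Grm8, Alpl, Scube3, Scube1, Hey2, Spock1, Dcc, Clstn2 and Asic2. All 15 were higher in the papilla-like cluster than in the remaining rule cells in both libraries.

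Much of the level of these genes lay in the papilla-like cluster. Spef2 stood at 14.6 and 10.1 CPM in rule cells and had 0 UMIs in other collagen-high cells, where 3 UMIs would correspond to 0.455 and 0.853 CPM; within rule cells it stood at 203 and 121 CPM in the cluster. Alpl stood at 20.4 and 20.5 CPM in rule cells and 1.82 and 3.41 CPM in other collagen-high cells, with log2 ratios of 3.43 (2.61 to 4.49) and 2.54 (1.68 to 3.62). Hey2 stood at 18.5 and 17.8 against 2.73 and 3.13 CPM, with log2 ratios of 2.73 and 2.46. Clstn2, a synaptic adhesion gene, stood at 62.7 and 113 against 13.4 and 17.9 CPM. Once the rule cells of the papilla-like cluster were left out, an alternative chosen after seeing the data, 35 genes were at least 2-fold higher.

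Among the 27 papilla genes outside the rule that could be compared, 10 were at least 2-fold higher in rule cells than in other collagen-high cells (Sox2, Prdm1, Alpl, Nog, Hey1, Hey2, Alx4, Scube3, Ndp and Prom1) and 1, Pappa, was lower. The median log2 ratio of the list was 0.52 and 0.79, beside 0.01 and 0.05 over all genes, of which 0.551% were higher and 1.87% lower. Dkk1 was higher as well, at 65.2 and 70.3 against 19.9 and 30.4 CPM, and it came from the rule cells outside the papilla-like cluster. Lef1, Bmp4 and Crabp1 were not among the 10. Crabp1, a retinoic acid binding protein, stood at 64.3 and 91.5 CPM in rule cells and 104 and 127 CPM in other collagen-high cells, while the cluster held 702 and 359.6 CPM.

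Among the genes furthest below in rule cells were Sfrp4, Htr1f, Rgs5, Mal, Krt6a, Egfl8, Ntm, Ly6g6c and Cxcl2. Several are marker genes of other cells that the comparison group holds. Rgs5, a pericyte gene, stood at 2.06 and 0.336 CPM in rule cells and 28.7 and 11.1 CPM in other collagen-high cells, and Krt6a, a keratin, at 1.83 and 0.673 against 21.4 and 7.96 CPM. The 8 Schwann and neural markers summed to 49.4 and 7.398 CPM in rule cells and 320.0 and 71.05 CPM in other collagen-high cells. The 13 keratinocyte markers summed to 958 and 645 against 2532 and 1253 CPM. The part of these cells in the comparison was not tested.

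Lists of other cell types were summed in the same way. The dermal sheath and smooth muscle list summed to 4721 and 3262 CPM in rule cells and 2618 and 2376 CPM in other collagen-high cells. The list had 0 of 12 members at least 2-fold higher in both libraries and 1, Myh11, lower, with a median log2 ratio of 0.12 and 0.05. Beside these counts, 0.551% of all genes were higher and 1.87% lower. Acta2, its best known member, had log2 ratios of 1.22 (1.17 to 1.28) and 0.76 (0.68 to 0.84). The 10 papillary fibroblast markers summed to 1845 and 2443 against 1707 and 1839 CPM, and the 14 reticular and hypodermal ones to 1849.5 and 1357 against 2292 and 2709 CPM. The 7 adipocyte markers summed to 565 and 254 against 967 and 769 CPM, the 8 melanocyte markers to 65.9 and 110.3 against 148 and 233 CPM, and the 8 immune markers to 29.96 and 6.05 against 156 and 5.97 CPM, with 0 and 2 of the 8 at 0 in rule cells. Endothelial markers summed to 17.6 and 27.9 against 18.1 and 21.03 CPM over 8 genes, although Kdr, a VEGF receptor of endothelium, was among the higher genes at 4.35 and 12.1 against 0.607 and 1.42 CPM. Pericyte markers (9 genes) summed to 245 and 199 against 258 and 231 CPM and skeletal muscle markers (8 genes) to 43.5 and 54.1 against 27.2 and 34.4 CPM.

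Hedgehog target and receptor genes were higher in rule cells than in the comparison group for Ptch1, and less so for Gli1. Ptch1, the Hedgehog receptor and a target of the pathway (chr13:63656142-63721412), stood at 496 and 505 CPM in rule cells, at 246 and 256 CPM in other collagen-high cells and at 144 and 119.7 CPM in keratinocytes. Its log2 ratio of rule cells over other collagen-high cells was 1.01 (0.92 to 1.11) and 0.98 (0.86 to 1.10). Within rule cells it stood at 943 and 1006 CPM in the papilla-like cluster and 462 and 459.6 CPM in the remaining cells, so Ptch1 was higher at both steps and in both libraries. Gli1, another target (chr10:127165751-127177865), stood at 56.7 and 66.2 CPM in rule cells and 43.9 and 42.9 CPM in other collagen-high cells. Shh, the ligand, had 0 UMIs in the cluster in both libraries, where 3 UMIs would correspond to 9.66 and 12.1 CPM.

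Of the 27 listed Hedgehog pathway genes, 23 could be compared between rule cells and other collagen-high cells, and 2, Scube1 and Scube3, were at least 2-fold higher in both libraries. The median log2 ratio of the list was -0.01 and 0.20. Of 21 that could be compared inside the rule cells, Ptch1, Scube1 and Scube3 were at least 2-fold higher in the papilla-like cluster, and Cdon, a co-receptor, was lower, at 28.98 and 8.08 against 71.6 and 89.1 CPM. The shares of all genes were 0.551% higher and 1.87% lower in rule cells, and 6.3% higher and 5.99% lower in the cluster. Smo, the signal transducer, stood at 138 and 194 CPM in the cluster against 99.7 and 112 CPM in the remaining rule cells.

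Other signalling lists differed in a few members. Beside them, 0.551% of all genes were higher and 1.87% lower in rule cells, and 6.3% higher and 5.99% lower in the cluster. Counts near these shares say nothing particular about a list. Of 18 Wnt response genes compared between rule cells and other collagen-high cells, Dkk1 was at least 2-fold higher and Lgr5 lower; inside the rule cells Lef1, Nkd2 and Apcdd1 were higher in the cluster, and Lgr5 and Dkk1 lower. Of 20 Wnt ligands, R-spondins and inhibitors, Dkk1 and Frzb were higher in rule cells, and Wnt16 and Sfrp4 lower. Of 23 BMP pathway genes, Bmp7, a ligand, and Nog, an antagonist, were higher in rule cells and Chrdl1 was lower. In the cluster, Bmp4 stood at 235 and 206 CPM against 19.9 and 40.3 CPM in the remaining rule cells, and Bmp7 at 158 and 169.7 against 12.6 and 11.7 CPM. Both BMP ligands were thus higher in the papilla-like cluster than in the remaining rule cells.

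Growth factor and guidance genes gave further members, beside 0.551% of all genes at least 2-fold higher and 1.87% lower in rule cells. Fgf7, a growth factor for epithelial cells, stood at 496 and 141 CPM in the cluster and 17.5 and 14.7 CPM in the remaining rule cells. Of 26 FGF, IGF and HGF genes compared with other collagen-high cells, Igfbp3 was higher in rule cells, and Igf1, Igf2, Igfbp5 and Hgf were lower. Of 30 Notch, ephrin and guidance genes, Hey1 and Hey2 were higher and 0 lower. Of 4 pigment cell signals compared, Edn3 was higher, at 54.4 and 45.1 against 20.04 and 19.3 CPM, and Hgf was lower. Of 19 TGF-beta and activin genes, 0 were higher, and Tgfb2 and Tgfbi were among the lower ones.

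Type I collagen was lower in the cluster, and some members of the matrix lists were 2-fold apart. Beside these, 6.3% of all genes were higher and 5.99% lower in the cluster, and 0.551% higher and 1.87% lower in rule cells. The median sum of Col1a1 and Col1a2 was 28.8 and 27.9 UMIs per 10000 in rule cells of the papilla-like cluster, 109.8 and 88.98 in the remaining rule cells and 128 and 111 in other collagen-high cells. The cluster thus lay just above the collagen threshold of 20, which the rule had set. Of 28 fibrillar collagen and small proteoglycan genes compared inside the rule cells, Fbln2 was higher in the cluster, and Col12a1, Dcn, Prelp, Podn and Lox were lower, with a median log2 ratio of -0.87 and -0.81. Against other collagen-high cells, 0 of 28 were higher in rule cells and Ogn, Eln and Dpt were lower. Of 37 basement membrane and matrix genes, Lama2, Lamc3, Col23a1, Sdc1, Smoc1, Frem1 and Itga8 were higher in the cluster, and Fn1, Sparc, Smoc2 and Egfl6 were lower.

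Cells of the papilla-like cluster rarely carried transcripts of division. After thinning to 2000 UMIs, at least 2 UMIs of the G2/M list were found in 4 of 30 (13.3%, 3.76 to 30.7) control and 2 of 36 (5.56%, 0.68 to 18.7) Gli2EKO rule cells of the cluster. The shares were 35.7% and 37.4% in the remaining rule cells and 32.4% and 23.0% in other collagen-high cells. Of 24 G2/M genes compared, 20 were at least 2-fold lower in the cluster than in the remaining rule cells in both libraries, and of 23 S phase genes 17 were lower, with 0 higher in either list. Among all genes compared, 5.99% were lower and 6.3% higher in the cluster. Mki67, a gene of dividing cells, stood at 90.2 and 8.08 CPM in the cluster and 263 and 322 CPM in the remaining rule cells. A cluster of dividing cells was split off by the same clustering, so these values partly restate how the cells were grouped. Between rule cells and other collagen-high cells, 0 of 24 S phase and 0 of 24 G2/M genes were at least 2-fold apart in both libraries, but the libraries differed in the G2/M list. Its median log2 ratio was -0.06 and 1.25, from sums of 1967 and 3122 CPM in rule cells and 2021 and 1316 CPM in other collagen-high cells.

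The lists of immediate early and stress genes were also compared, because tissue digestion can raise them. Of 19 such genes, Egr1, Hspa1a, Hspa1b, Dnajb1 and Ccn1 were at least 2-fold higher in the papilla-like cluster than in the remaining rule cells, and 0 were lower. Among all genes compared, 6.3% were higher and 5.99% lower in the cluster. The part of digestion in the levels of the cluster was not tested.

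The collagen threshold left out most cells with many of the 7 genes. Of all filtered cells, 233 of 4844 in control (4.81%, 4.22 to 5.45) and 163 of 3362 in Gli2EKO (4.85%, 4.15 to 5.63) had at least 5 of the genes. Only 42 of these 233 (18.0%) and 42 of 163 (25.8%) reached 20 collagen UMIs per 10000. The median was 10.8 and 10.4 collagen UMIs per 10000. Cells with at least 5 genes, collagen under 20 and keratin under 20 numbered 175 and 107, and are called collagen-low cells here; they were singled out after seeing the data and are not members.

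In the collagen-low cells Corin, Alpl, Lef1 and Ptch1 were higher than in the rule cells of the papilla-like cluster, while Prdm1, at 278 and 308 against 193 and 469 CPM, was not so in Gli2EKO. Corin, which the choice of these cells used, stood at 879 and 822 CPM in them and at 618 and 533 CPM in the rule cells of the cluster. The choice of collagen-low cells did not use Alpl, Lef1 or Ptch1, but the clustering behind the papilla-like cluster did not leave them out. Alpl stood at 525 and 487 against 248 and 194 CPM, and Lef1 at 481 and 548 against 184 and 186 CPM. Ptch1 stood at 1169 and 1152 against 943 and 1006 CPM. Acta2 stood at 52.8 and 11.3 CPM, below the 1808 and 1086 CPM of the remaining rule cells. These cells had a median of 8421 and 6726 UMIs, close to the 9415.5 and 6772.5 UMIs of the rule cells in the cluster. When they were clustered together with the collagen-high cells, 247 of the 282 (87.6%) fell into 2 clusters, called joint clusters here and led by Dcc and by Prokr2, with 56 rule cells.

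**Figure D4:**
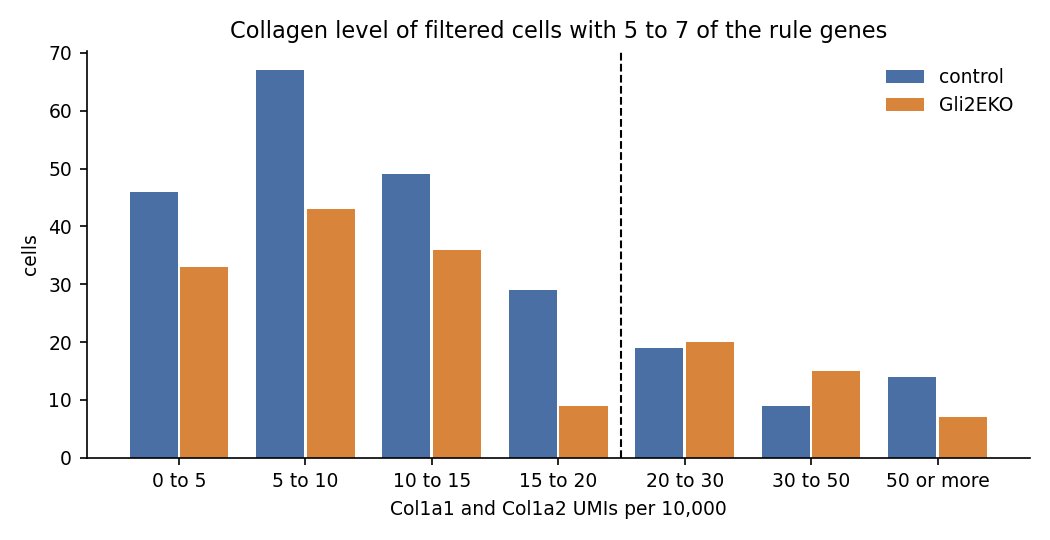
Number of filtered cells with 5 to 7 of the rule genes (y axis) by their Col1a1 and Col1a2 UMIs per 10000 (x axis), control in blue and Gli2EKO in orange, with the dashed line at the threshold of 20. Most cells of both libraries lie left of the line, with a median of 10.8 in control and 10.4 in Gli2EKO.

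The values at the collagen threshold bear on the share of rule cells. Among cells with at least 3 of the genes, 30 control and 14 Gli2EKO cells lay just outside, at 15 to 20 collagen UMIs per 10000, while 15 and 25 lay just inside, at 20 to 25. Rule cells were 5.82% (5.18 to 6.52) of filtered cells in control and 7.20% (6.35 to 8.12) in Gli2EKO, a ratio of 1.24 (1.04 to 1.47). Of collagen-high cells they were 35.1% (31.8 to 38.5) and 43.0% (38.9 to 47.2), a ratio of 1.22 (1.03 to 1.46). Rule cells of the papilla-like cluster were 0.619% and 1.07% of filtered cells. All 3 shares were higher in the Gli2EKO library. The share of filtered cells with at least 5 of the genes, taken without a collagen threshold, had a ratio of 1.01 (0.82 to 1.24), and with the threshold raised to 50 the share of rule cells among filtered cells had a ratio of 0.947. How much tissue stayed attached to each sheet was not measured, and library and genotype cannot be told apart.

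Between the genotypes, the Hedgehog targets Ptch1 and Gli1 of the rule cells lay close together, while Hhip was lower in Gli2EKO. Hhip, which the rule used, stood at 159 (148 to 171) and 122 (110 to 135) CPM in rule cells. In those of the papilla-like cluster it stood at 741 (648 to 843) and 400.0 (325 to 487) CPM, and in collagen-low cells at 1057 and 734 CPM. Ptch1 stood at 496 and 505 CPM, with a log2 ratio of Gli2EKO over control of 0.03 (-0.07 to 0.12). Within the papilla-like cluster its ratio was 0.09 (-0.16 to 0.34), and in collagen-low cells -0.02 (-0.14 to 0.09). Gli1 had 0.22 (-0.05 to 0.50) in rule cells. The intervals of Ptch1 and Gli1 in rule cells stayed within 2-fold in either direction, as far as counting error goes. Gli2, floxed but not deleted by design in fibroblasts (chr1:118761858-118982598), stood at 239 and 201 CPM in rule cells, a log2 ratio of -0.25 (-0.40 to -0.10). Of 23 Hedgehog pathway genes, Fuz was at least 2-fold higher and Scube2 at least 2-fold lower, with a median log2 ratio of 0.03. Over all 12415 genes compared in rule cells, 281 (2.26%) were at least 2-fold higher and 462 (3.72%) at least 2-fold lower in Gli2EKO, and the median of all genes was 0.00.

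Of 19 Wnt response genes, 5 were at least 2-fold higher in Gli2EKO rule cells (Tcf7, Axin2, Nkd1, Nkd2 and Apcdd1) and 1, Rnf43, was lower, while the median log2 ratio of the list was 0.16. Tcf7 stood at 54.4 and 175 CPM, a log2 ratio of 1.68 (1.46 to 1.91). Apcdd1, a membrane inhibitor of Wnt signals, stood at 78.2 and 238 CPM, with 1.60 (1.42 to 1.79), and Nkd1, a feedback inhibitor, at 63.1 and 164 CPM, with 1.38 (1.17 to 1.60). Axin2, the best known Wnt target, stood at 17.8 and 40.7 CPM, with 1.19 (0.77 to 1.62).

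The same genes were also higher in other collagen-high cells, to a smaller degree. There the log2 ratio of Tcf7 was 0.81 (0.54 to 1.08), of Apcdd1 0.68 (0.55 to 0.82) and of Nkd1 0.86 (0.68 to 1.04). In collagen-low cells the ratios were 0.38 (-0.21 to 0.95), 0.37 (0.18 to 0.55) and 0.39 (0.00 to 0.77), and 0 of 18 Wnt response genes were at least 2-fold higher. Wif1, a rule gene and a secreted Wnt inhibitor, stood at 301 and 653 CPM in rule cells and 85.9 and 253 CPM in other collagen-high cells, but at 1559.6 and 955 CPM in collagen-low cells. Its log2 ratio of Gli2EKO over control was thus positive in collagen-high cells and negative, -0.71 (-0.83 to -0.59), in collagen-low ones. Beside these levels stand the numbers of rule cells by cluster: the Dkk1 and Tcf7-led cluster held 43 control and 52 Gli2EKO rule cells, and the Ednrb and Acta2-led cluster 83 and 34. The part of the clusters in these levels was not tested.

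Cdkn1c, which encodes the cyclin-dependent kinase inhibitor p57, was higher in Gli2EKO in all 4 groups of cells examined. It stood at 209.5 and 308 CPM in rule cells, 90.2 and 246 CPM in those of the papilla-like cluster, 131 and 296 CPM in collagen-low cells and 327 and 702 CPM in other collagen-high cells. The log2 ratios were 0.56 (0.42 to 0.69), 1.44 (0.78 to 2.15), 1.18 (0.91 to 1.45) and 1.10 (1.02 to 1.19) in that order. After thinning to 2000 UMIs, a Cdkn1c UMI was found in 75 of 282 (26.6%) and 95 of 242 (39.3%) rule cells, against 2.205% and 4.01% of keratinocytes. Of 11 cell cycle inhibitors compared in rule cells, Cdkn2a was at least 2-fold higher and 0 were lower.

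Fgf7, Sostdc1 and Vcan were lower in Gli2EKO rule cells. Fgf7 stood at 51.5 and 25.2 CPM, a log2 ratio of -1.02 (-1.43 to -0.65). Inside the papilla-like cluster it stood at 496 and 141 CPM, with -1.79 (-2.38 to -1.27), and in collagen-low cells at 883 and 305 CPM, with -1.53 (-1.73 to -1.34). Of the collagen-low cells, 97 of 175 in control and 43 of 107 in Gli2EKO fell into the Dcc-led joint cluster, in which Fgf7 is a leading gene, and 55 and 52 into one led by Prokr2. Within these joint clusters, over their collagen-low and rule cells, the log2 ratios of Fgf7 were -1.08 and -0.71, and the part of the mixture in the other ratios of collagen-low cells was not tested. In other collagen-high cells Fgf7 stood at 18.2 and 24.2 CPM. Sostdc1, a secreted antagonist of BMP and Wnt signals, stood at 837 and 48.5 CPM in the cluster, 1030.0 and 339 CPM in collagen-low cells and 37.2 and 41.4 CPM in the remaining rule cells. Its log2 ratios in the first 2 groups were -4.05 (-5.08 to -3.28) and -1.60 (-1.79 to -1.42). Sostdc1 was far higher in the Dcc-led than in the Prokr2-led joint cluster, as given under the other observations. Of the rule cells of the papilla-like cluster, 10 of 30 in control and 5 of 36 in Gli2EKO fell into the Dcc-led joint cluster. The part of this mixture in the ratios of the papilla-like cluster was not tested. Vcan, a large proteoglycan of the papilla matrix, stood at 1191 and 585 CPM in rule cells, with -1.02 (-1.10 to -0.95), at 997 and 753 CPM in other collagen-high cells, with -0.41 (-0.47 to -0.34), and at 2656 and 2125 CPM in collagen-low cells.

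Among papilla genes outside the rule, 2 of 27 were at least 2-fold higher in Gli2EKO rule cells (Prdm1 and Hey1) and 3 lower (Vcan, Fgf7 and Ntrk3). Of all genes 2.26% were higher and 3.72% lower, and the median log2 ratio of the papilla genes was 0.16. Inside the cluster, where 163 of 5464 genes (2.98%) were at least 2-fold higher and 311 (5.69%) lower, Prdm1 and Hey1 were higher and Sox2, Vcan, Fgf7, Nog and Pappa lower, of 24 compared. Sox2 in the cluster had a log2 ratio of -1.14 (-2.06 to -0.35), from 48 and 17 UMIs. In collagen-low cells, where 208 of 10479 genes (1.98%) were at least 2-fold higher and 463 (4.42%) lower, Sox2 had 0.14 (-0.22 to 0.49), Prdm1 0.14 (-0.09 to 0.37) and Hey1 0.14 (-0.32 to 0.59). In the larger set of collagen-low cells the ratios of Sox2, Prdm1 and Hey1 thus lay near 0. When collagen-high and collagen-low cells were clustered together, 10 of the 30 control and 5 of the 36 Gli2EKO rule cells of the papilla-like cluster fell into the Dcc-led joint cluster, and the part of this in the ratios of the papilla-like cluster was not tested. Alpl had -0.35 (-0.91 to 0.18) in the cluster and -0.11 (-0.28 to 0.07) in collagen-low cells.

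**Figure D5:**
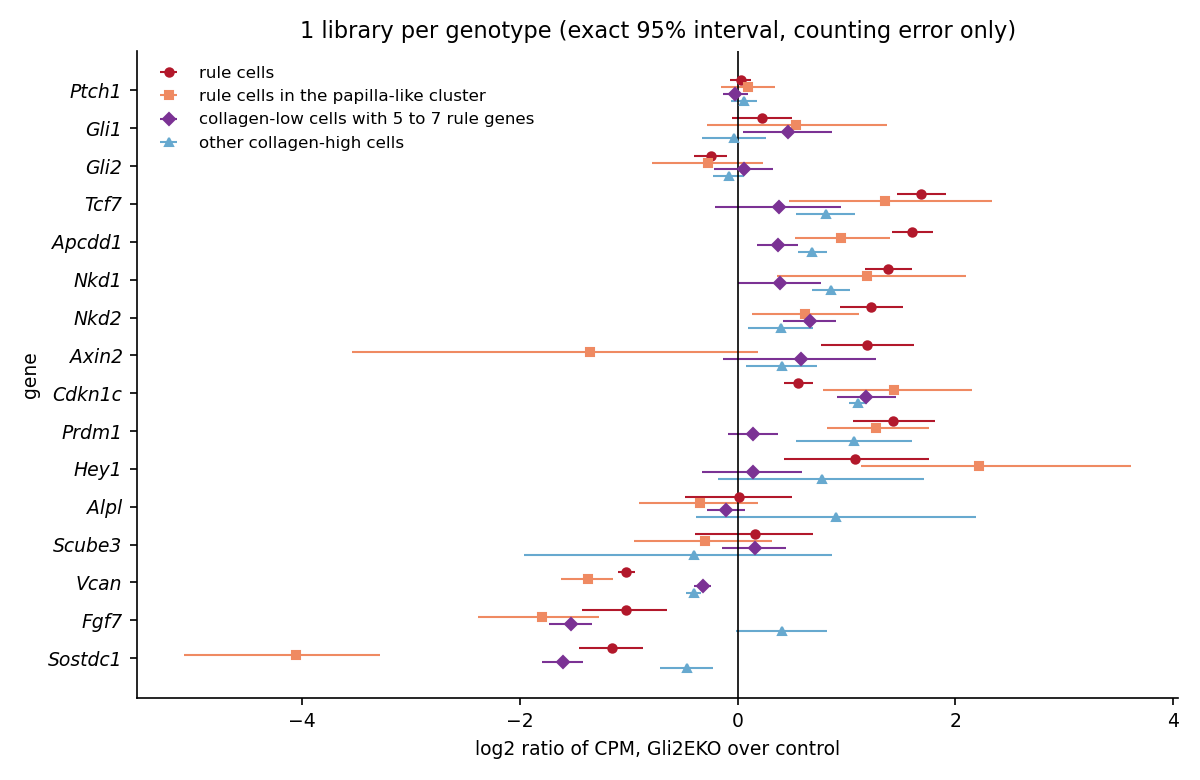
Log2 ratio of CPM of Gli2EKO over control (x axis) for 16 genes (y axis) in rule cells (circles), rule cells of the papilla-like cluster (squares), collagen-low cells with 5 to 7 rule genes (diamonds) and other collagen-high cells (triangles), with exact 95% intervals of counting error. Ptch1 lies near 0 in all 4 groups, Cdkn1c lies above 0 in all 4, and Tcf7 and Apcdd1 lie further from 0 in rule cells than in collagen-low cells.

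Other pathway lists gave the following counts between genotypes in rule cells. Beside them, 2.26% of all genes were at least 2-fold higher and 3.72% lower in rule cells, and 2.98% and 5.69% in the cluster. Counts near these shares say nothing particular about a list. Among the BMP pathway genes, Grem1 and Msx1 were at least 2-fold higher and Gdf10 and Chrdl1 lower. In the cluster 6 of 17 BMP genes were lower, among them Id3, a target of BMP signals, at 389.6 and 105 CPM, and Gdf10, a ligand, at 99.8 and 8.08 CPM. In the same cells of the cluster 6 of 17 immediate early and stress genes were lower (Fos, Jun, Junb, Zfp36, Hspb1 and Dnajb1) and 2 higher, with sums over the list of 11363 and 7228 CPM, and their part in the BMP values was not tested. In collagen-low cells 0 of 23 BMP genes were 2-fold apart, with Id3 at 435 and 267 CPM. Of 24 FGF, IGF and HGF genes, 0 were higher and 5 lower (Fgf7, Fgf18, Spry4, Igfbp6 and Met). Of 19 Wnt ligands, R-spondins and inhibitors, Rspo4 was higher and Rspo2 and Sostdc1 lower. Of 30 Notch, ephrin and guidance genes, Hey1 was higher and Sema3a, Sema3c, Unc5c and Cxcl12 lower. Of 19 TGF-beta and activin genes, 0 were higher and Acvr1b was lower, and of 3 pigment cell signals Kitl, the ligand of the KIT receptor, was lower.

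In the matrix and S phase lists few members were 2-fold apart between genotypes. The level of the G2/M list was higher in Gli2EKO rule cells, but not the share of cells carrying it. These counts also stand beside 2.26% of all genes at least 2-fold higher and 3.72% lower in rule cells. Of 41 basement membrane and matrix genes, Col13a1 and Smoc1 were higher and Vcan, Lama5 and Postn lower. Of 29 fibrillar collagens and small proteoglycans, Col5a3 and Col11a1 were lower. Of 24 S phase genes 0 were higher and Ung was lower. Of 24 G2/M genes Ccnb2, Aurka, Ube2c and Cdc20 were at least 2-fold higher and 0 lower, with a median log2 ratio of 0.77 and sums of 1967 and 3122 CPM. Collagen-low cells went the other way, with 12 of 18 G2/M and 7 of 19 S phase genes at least 2-fold lower in Gli2EKO and 0 higher. Mki67 stood at 251 and 296 CPM in rule cells and at 98.5 and 37.7 CPM in collagen-low cells. After thinning to 2000 UMIs, at least 2 UMIs of the G2/M list were found in 33.3% and 32.6% of rule cells. Of 21 immediate early and stress genes, Hspa1b was higher in Gli2EKO rule cells and Fos, Fosl1 and Atf3 lower.

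The 10 genes furthest above in Gli2EKO rule cells were Ndufa12-ps, Ccl2, Kera, Grm8, Coch, Cadps, Vipr2, Pmel, Fmn2 and Ptpro. Several rest on few cells or on other cell types. Of the Gli2EKO UMIs of Ccl2, a chemokine, 50% came from 1 cell, and of those of Pmel, a melanosome protein, 92.9% did. Ndufa12-ps is a pseudogene whose reads can be shared with its parent gene, and it was also higher in keratinocytes, at 2.902 and 29.1 CPM. Grm8, a glutamate receptor, stood at 5.72 and 44.1 CPM in rule cells, with at most 9.92% of the Gli2EKO UMIs from 1 cell, at 74.1 and 198 CPM in the cluster and at 21.4 and 94.1 CPM in collagen-low cells. Vipr2, a neuropeptide receptor, stood at 6.44 and 72.7 CPM in the cluster and 29.7 and 61.5 CPM in collagen-low cells. In the Dcc-led joint cluster alone Vipr2 stood at 25.2 and 27.3 CPM, and in the Prokr2-led one at 33.99 and 102 CPM. The Vipr2 levels of the genotypes thus lay close together in the former and further apart in the latter.

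The 10 genes furthest below were Pf4, Mbp, Hba-a2, F13a1, Kcnd2, Cbr2, Bnc2, Lama3, Hpgd and Cdh3. Pf4 and F13a1 are expressed by macrophages, Mbp is a myelin gene, and Hba-a2 encodes alpha globin, whose reads can be shared with its near-identical copy Hba-a1. In the control rule cells 58.0% of the Pf4 UMIs and 82.0% of the Mbp UMIs came from 1 cell. The immune markers summed to 29.96 and 6.05 CPM in rule cells, the Schwann and neural markers to 49.4 and 7.398 CPM with 6 of 6 compared genes at least 2-fold lower, and 4 haemoglobin genes to 84.6 and 15.8 CPM. Keratinocyte markers summed to 958 and 645 CPM and adipocyte markers to 565 and 254 CPM, each lower in Gli2EKO, while melanocyte markers summed to 65.9 and 110.3 CPM. The part of these other cells in the differences between genotypes was not tested. Kcnd2, a potassium channel, stood at 199.6 and 8.08 CPM in the cluster but at 268 and 309 CPM in collagen-low cells. In the Gli2EKO cells of the cluster 3 UMIs would correspond to 12.1 CPM. Within the Dcc-led joint cluster, of which it is a leading gene, Kcnd2 stood at 482 and 721 CPM. The part of the joint clusters in its levels was not tested. Bnc2, a zinc finger gene, stood at 96.3 and 13.8 CPM in rule cells and 139 and 122 CPM in collagen-low cells. Hpgd, which breaks down prostaglandins, stood at 90.6 and 14.1 CPM in rule cells and 10.1 and 13.8 CPM in collagen-low cells.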

How the data were processed

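Single Cell 3' v4 libraries with on-chip multiplexing were prepared from 1 control and 1 Gli2EKO cell suspension, and the authors deposited for each a filtered matrix of raw UMI counts per gene and cell. The submitters' processing notes name Cell Ranger 9.0.1, Seurat and the GRCm39 build. Counts were read in Python 3.11.15 with scipy 1.17.1 and pandas 2.3.3. UMIs were summed over the cells of a group in each library and expressed as CPM, and log2 ratios were taken with 0.5 UMIs added to each sum. Genes needed at least 20 UMIs over the groups compared in each library, or over both libraries for the genotype comparison, and a gene was counted as higher or lower past 2-fold, in both libraries where cell groups were compared. Collagen-high cells were clustered in scanpy 1.11.5 (2000 variable genes, of which 1991 stayed, 20 principal components, Leiden resolution 0.5). Doublets were scored with Scrublet at an expected rate of 0.06, and no cell was removed for its score. Cells were thinned to 2000 UMIs for shares of cells with a UMI, and shallower cells were left out. The arithmetic was tested on simulated counts.

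Named genes were the members of the fixed lists, the 15 highest and 10 lowest ratios of rule cells over other collagen-high cells, ranked by the smaller difference of the 2 libraries, and the 10 highest and 10 lowest ratios between genotypes among genes with at least 50 UMIs and 3 in each library. The genes ranked between the papilla-like cluster and the remaining rule cells, and the collagen-low cells, were added after seeing the data. The members and lists were chosen with earlier results of these data known. Some genes that the naming rule covers are not reported here. Sex-linked genes were measured as a check and 0 of 4 were 2-fold apart in any comparison. With 1 library per genotype, differences between libraries, animals and genotypes cannot be told apart.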

Additional observations from a re-analysis of the deposited data

Results flagged for a closer look

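For 8 genes the ratio of rule cells over other collagen-high cells went past 2-fold in opposite directions in the libraries. The difference between the libraries was not tested, since each genotype has 1 library. The log2 ratio of Nrarp, a Notch feedback inhibitor, was -1.33 in control and 1.47 in Gli2EKO, and that of Dab1, an adaptor of Reelin signalling, was -1.17 and 1.69. For Dgki, a diacylglycerol kinase, it was 1.36 in control and -1.25 in Gli2EKO. For the apolipoprotein gene Apoc1 it was -1.13 and 1.13, and for the chemokine gene Ccl2 -1.59 and 2.38, where 1 cell held 50% of the Gli2EKO rule-cell UMIs of Ccl2. For Arhgap19 it was -1.83 and 1.53, for Hpse2 -1.22 and 1.10, and for Vwa2 -1.98 and 1.99.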

How the results depend on the processing

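No paired analysis was possible because each genotype has 1 library and the results come from no test. Against the values given above, a share ratio of 1.24 of filtered and 1.22 of collagen-high cells and counts of 67 higher and 227 lower genes in rule cells and 281 higher and 462 lower genes in Gli2EKO, the share ratios lay within their intervals under 10 of 14 and 11 of 14 settings and the 4 counts within 1.5-fold under 9, 13, 17 and 16 of 19. With at least 2 of the 7 genes 115 genes were lower in rule cells, and with at least 4 genes 113 were higher. With collagen of at least 50 per 10000 the share ratio of filtered cells turned to 0.947 and 42 genes were higher. Without the top 8% of doublet scores 149 genes were lower. With cells thinned to 5000 UMIs the share ratios were 1.60 and 1.59 and 121 genes were higher. A gene minimum of 5 UMIs gave 155 higher and 451 lower genes in rule cells and 986 higher and 1296 lower in Gli2EKO. A minimum of 50 UMIs gave 38, 123, 131 and 233, with fewer genes compared. With 5 UMIs added 286 genes were lower in Gli2EKO. Among settings chosen after seeing the data, at least 5 genes gave share ratios of 1.48 and 1.46 with 382 higher and 355 lower genes, rule cells outside the papilla-like cluster 35 higher, collagen of at least 10 and 5 per 10000 175 and 249 higher, and at least 5 genes with collagen of at least 5 turned the share ratios to 0.974 and 0.975, with 780 higher and 733 lower genes. The causes of these shifts were not tested. Depth limits the papilla-like cluster most, where 3 UMIs correspond to 9.66 and 12.1 CPM.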

Other observations

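The 282 collagen-low cells are not members of the rule, but they held most of the cells with 5 or more of its genes, and clustering them with the collagen-high cells gave 15 clusters, of which 2 held 247 of them. Both are described here over their collagen-low and rule cells, and the genes given also entered the clustering. The first, led by Dcc, a netrin receptor, with Rspo2 and Fgf7 among its leading genes, held 140 collagen-low and 15 rule cells. The second, led by Prokr2 and Lhfpl3, with Prdm1 and Bmp7 among its leading genes, held 107 collagen-low and 41 rule cells. Corin stood at 768 and 806 CPM in the Dcc-led and 1312 and 836 CPM in the Prokr2-led cluster, in control and Gli2EKO. Alpl stood at 671 and 739.7 CPM in the first and 398 and 316 CPM in the second. Both clusters thus carried these papilla genes. Sox2 stood at 225 and 321 CPM in the Dcc-led and 1.89 and 15.1 CPM in the Prokr2-led cluster, while Prdm1 stood at 140.4 and 142 CPM in the first and 519 and 518 CPM in the second.

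Between genotypes, the log2 ratio of Gli2EKO over control of Cdkn1c was 1.21 in the Dcc-led and 1.13 in the Prokr2-led cluster. That of Fgf7 was -1.08 in the first, at 1489 and 703 CPM, and -0.71 in the second, at 130.3 and 79.05 CPM. That of Sostdc1 was -1.18 in the first, at 1863 and 822 CPM, and -0.97 in the second, at 33.99 and 16.9 CPM. The latter rests on 18 and 9 UMIs, with overlapping intervals of 20.1 to 53.7 and 7.75 to 32.2 CPM. Cdkn1c was higher and Fgf7 lower in Gli2EKO in both clusters, and Sostdc1 was lower beyond counting error in the Dcc-led cluster. Prdm1 had 0.03 and 0.00, so its difference in the papilla-like cluster was not seen in either. Wif1 had -0.53 and 0.37, and Apcdd1 -0.79 and 0.52, with opposite signs in the 2 clusters.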
